A study of Saccharomyces cerevisiae with 11 samples.

Results

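The genes described here encode the cytosolic protein synthesis factors of budding yeast (Saccharomyces cerevisiae), that is initiation, elongation and release factors, beside the cytosolic aminoacyl-tRNA synthetases and the synthetase cofactor ARC1. They were taken from a list of 52 genes by name, each through the probe set annotated to that gene alone, and through the probe set with the higher mean time course signal where a gene had several. This gave 50 genes, 31 factors (24 of initiation, 5 of elongation, 2 of release) and 19 synthetase genes including ARC1, out of 5656 genes with a probe set of their own. TIF1 and TIF2, which encode the same helicase eIF4A, share 1 probe set and were therefore not counted. The series compared strains with and without the Paf1 complex, a set of proteins that travels with RNA polymerase II, on 11 Affymetrix arrays of 9335 probe sets. For the time course a TetO2-Paf1 strain, whose PAF1 promoter doxycycline represses, was grown without the drug (0 h) or with it for 2, 4, 5, 6 or 8 h, with 1 array per time. All 6 of these arrays thus come from the TetO2 strain, and its 0 h array is the only untreated one. The strain set held 2 wild type arrays, 2 arrays of a paf1 deletion and 1 of a ctr9 deletion, all from cultures in rich medium with 4% glucose. Further genotypes, and whether replicates came from separate cultures, were not stated, so p-values measure the spread between arrays, which may be technical.

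Initiation factors bring the initiator tRNA and the small ribosomal subunit to the start codon of an mRNA. eIF2 carries the tRNA and is recharged by eIF2B, eIF3 holds the small subunit, and eIF4 factors bind and unwind the mRNA. Elongation factors deliver charged tRNAs and move the ribosome, and release factors end the chain at a stop codon. Each synthetase loads its amino acid onto the matching tRNAs. In growing yeast these genes belong to the growth-related class, whose mRNAs are abundant in rich medium and are often lowered together under stress.

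Time course values were linear signal intensities, which the authors had brought to 1 common level per array, so a signal gives an mRNA relative to the other mRNAs on its array. Less of an mRNA per cell and fewer cells that carry it cannot be told apart. Strain values were scores of unstated scale bounded at -10 and 10. Mean signals of the 50 genes ran from 106 to 13603, with 29 of them in the top 10% of all probe sets. In that range scores no longer follow signals (Spearman correlation -0.24 over 928 probe sets, against 0.92 over all). Over the 50 genes the correlation was 0.23. Scores and signals come from different strains and arrays. A difference in score is therefore not read as a fold change, and it may be compressed for most genes here, which was not tested. All 50 passed the filter on low values for both kinds of value. PAF1 itself had a signal of 272 at 0 h and 119 to 184 later. Its wild type scores were 7.27 and 8.08, its paf1 deletion scores 1.00 and 0.47. CTR9 scored 0.00 where deleted and 1.84 and 4.36 on the wild type arrays. The 4 h array stood apart in the ratio of 5' to 3' actin signal, at 5.92% against 68.6% to 78.6% on the others, and the 4 h and 6 h arrays in spiked-in controls, at 4.34-fold and 3.93-fold the 0 h signal against 1.01- to 1.14-fold at the other times.

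The time course asked how transcripts respond once PAF1 is shut off. After doxycycline, signals of the protein synthesis genes mostly lay modestly below 0 h, initiation factors further than synthetases, and no single gene passed the test for a trend. At 2 h all 31 factors and 16 of 19 synthetase genes were below their 0 h signal, 47 of 50 together, where 46.0% of all 6492 tested probe sets were. The median gene stood at 83.9%, 92.5%, 86.7%, 82.3% and 82.0% of 0 h on the 2, 4, 5, 6 and 8 h arrays. Over all tested probe sets the median stayed between 99.4% and 106%. Among the 2284 tested probe sets with a mean signal of at least 500, closer to the range of the genes here, it stayed between 99.6% and 103%. That background was added after the values were seen.

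Initiation factors had medians of 75.6%, 90.3%, 72.6%, 81.6% and 76.9% of 0 h at these 5 times, and synthetase genes 89.4%, 99.5%, 96.1%, 85.1% and 82.9%. The gap between both classes was therefore widest at 5 h and small at 6 h. It is a difference of medians on single arrays and was not tested.

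**Figure D1:**
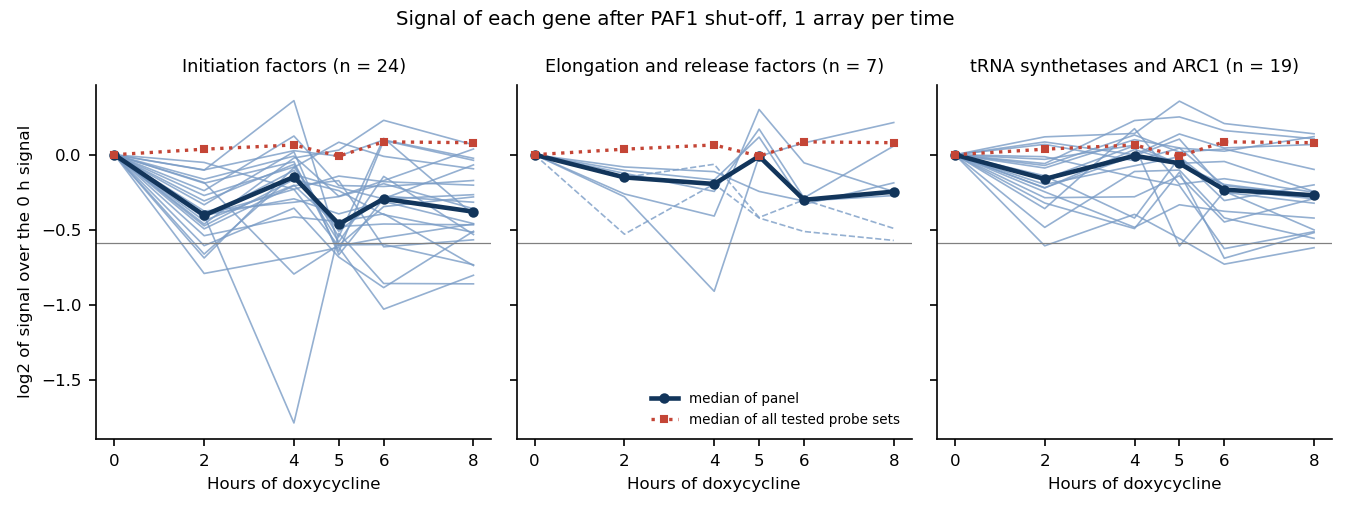
Log2 of the signal over the 0 h signal (vertical) against hours of doxycycline (horizontal) for 24 initiation factor genes, 7 elongation and release factor genes (release dashed) and 19 synthetase genes with ARC1. Each thin line is 1 gene on 1 array per time, the thick line the panel's median, the dotted line the median of all 6492 tested probe sets, and the grey line marks 1.5-fold lower. At 2 h all 31 factors lie below 0, and the lowest point is DED1 at 4 h.

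Changes of at least 1.5-fold were few. At 2 h 5 genes were that far below 0 h (background 11.3% of tested probe sets), at 4 h 4 (background 14%), at 5 h 8 (13.1%), at 6 h 8 (10.6%) and at 8 h 5 (9.84%). These are 10%, 8%, 16%, 16% and 10% of the 50 genes. Among tested probe sets with a mean signal of at least 500, 8.58%, 9.19%, 8.32%, 10.2% and 7.88% were that low. Initiation factors reached 16.7%, 12.5%, 29.2%, 20.8% and 16.7%, and synthetase genes 5.26%, 0%, 5.26%, 15.8% and 5.26%. None of the 50 was 1.5-fold higher at any time, although 11.5%, 18.1%, 10.8%, 18.5% and 17.3% of tested probe sets were at 2, 4, 5, 6 and 8 h. On the lower side, larger differences of the 50 were thus near the background of all tested probe sets. At 5 and 6 h they were more common than among probe sets of signal 500 or more, above all in initiation factors. These shares were not tested, and no larger difference was seen on the higher side.

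A signal below 0 h on all 5 later arrays was found for 26 of 50 genes, against a background of 18.8% of tested probe sets. By class these were 15 of 24 initiation factors, 1 of 5 elongation factors, both release factors and 8 of 19 synthetase genes. Only THS1 lay above 0 h on all 5, against a background of 25.9%. Every such count rests on the single 0 h array, which held the highest of the 6 signals for the same 26 genes. With the 2 h array as the reference, the median log2 ratios at the 4 remaining times, in order, were 0.15, 0.09, -0.02 and -0.04. The step in the median of all 50 thus lay between the first arrays of the course. Synthetase genes did not keep to it. Their median was 89.4% of 0 h at 2 h, 99.5% and 96.1% at 4 and 5 h, and 85.1% and 82.9% at 6 and 8 h. Single genes departed from this, and DED1, CAM1 and TIF4631 were at least 1.5-fold lower at 4 h than at 2 h. These ratios rest on the array with the low 5' actin signal, whose part in them was not tested. At 5 h DED1 and CAM1 were at 1245 and 1264, and TIF4631 was at 591. Whether the 0 h array stands for the untreated strain could not be tested with 1 array per time.

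**Figure D2:**
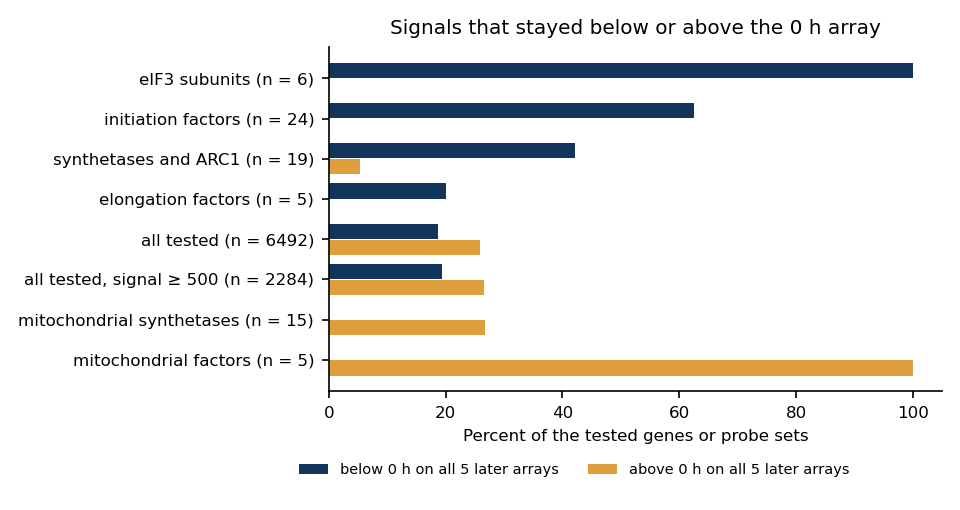
Percent of genes or probe sets (horizontal) whose signal lay below (dark) or above (light) the 0 h array on all 5 later arrays, by class, with the number tested in brackets. All 6 eIF3 subunit genes are below, while all 5 tested mitochondrial factor genes are above, against 18.8% and 25.9% of all tested probe sets.

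The test for a trend over hours of doxycycline gave 0 of 50 genes past the threshold (limma, Benjamini-Hochberg, adjusted p under 0.05), as it gave 0% of all tested probe sets. Limma's fitted slope was below 0 for 41 of 50 genes and for 43.1% of tested probe sets, with a median of -0.03 log2 units per hour against 0.01 over all. An unadjusted p under 0.05 was reached by 3 of the 50, all with negative slopes, and by 560 probe sets in all. ALA1, for alanyl-tRNA, had -0.08 per hour (SE 0.03, limma adjusted p = 0.557). TIF4631, for the scaffold eIF4G, had -0.09 (SE 0.03, limma adjusted p = 0.557). EFB1, for a subunit of the elongation factor eEF1B, had -0.04 (SE 0.02, limma adjusted p = 0.558). ALA1, TIF4631 and EFB1 were still at 99.1%, 88.0% and 94.5% of 0 h at 2 h, so most of their difference came later. Without the 0 h array the median slope was -0.02, 36 of 50 slopes were still below 0 and none of the 50 reached an unadjusted p under 0.05. Over all tested probe sets the median was then 0.01 and 42.8% of slopes were below 0. Such a limma p was reached by 106 of them with positive and 48 with negative slopes.

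Of the initiation complexes eIF3 was the most uniform, and all 6 of its measured subunit genes lay below 0 h on every later array. RPG1, the largest subunit eIF3a, had a signal of 2739 at 0 h, followed by 1583, 1709, 1786, 1343 and 1570 on the 2, 4, 5, 6 and 8 h arrays. The 0 h signal stood alone, with every later one at 49.0% to 65.2% of it. PRT1, the subunit eIF3b, had 2624, 1985, 2237, 1721, 1789 and 1907 at the same times. NIP1, the subunit eIF3c, had 807, 556, 606, 593, 615 and 484, its lowest at 8 h. Later signals of both lay between 60.0% and 85.3% of 0 h.

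TIF34, the WD-repeat subunit eIF3i, had 2961 at 0 h and 2183, 2572, 2126, 2151 and 2142 afterwards. TIF35, the RNA-binding subunit eIF3g, had 3245 and then 2052, 2964, 2790, 2646 and 2699. HCR1, the loosely bound subunit eIF3j, had 2269 and then 1750, 1822, 1870, 1985 and 1769. TIF35 and HCR1 were lowest at 2 h, TIF35 at 63.2% of 0 h with 81.5% to 91.3% on the arrays after it. The slopes of the 6 ran from -0.09 for RPG1 (SE 0.04, limma adjusted p = 0.574) to -0.01 for TIF35 (SE 0.04, limma adjusted p = 0.966), and none passed.

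**Figure D3:**
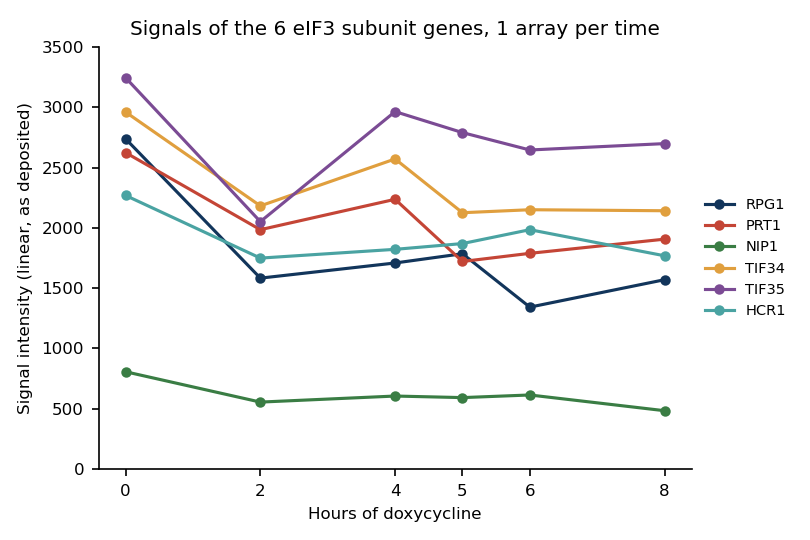
Signal intensity as deposited (vertical, linear from 0) against hours of doxycycline (horizontal) for the 6 eIF3 subunit genes, 1 array per time. Each line has its highest point at 0 h, and RPG1 goes from 2739 to 1343 at 6 h.

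Of eIF2, whose 3 subunits bind the initiator tRNA, SUI3 (beta subunit) and GCD11 (gamma subunit) lay below 0 h throughout. SUI3 had 1758 at 0 h and 1266, 1568, 1490, 1333 and 1229 later. GCD11 had 4172 and then 2964, 3617, 3701, 2727 and 2817. SUI2, the alpha subunit that the kinase Gcn2 phosphorylates, differed, with 1060 at 0 h, 678 at 5 h and 929 to 1131 at the remaining times.

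The 5 genes of eIF2B, which exchanges GTP on eIF2, were mixed. GCD1, GCD2, GCD6 and GCN3 each had their lowest signal at 5 h, at 63.0% to 70.2% of 0 h. GCD7 instead had its lowest at 2 h, with 802 at 0 h, 498 at 2 h and 752 to 850 later. GCN3, the regulatory alpha subunit, had 832, 622, 774, 556, 753 and 576 over the 6 times. GCD6, the catalytic epsilon subunit, had 504, 400, 510, 317, 411 and 481. GCD1 had 1157 at 0 h and 813 to 1093 later, and GCD2 306 at 0 h and 202 to 393 later. Over all tested probe sets 5 h was also the most common later time for the lowest signal, in 1507 of 6492.

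Among the factors that act on mRNA, the eIF4G pair went separate ways. TIF4631 had 896 at 0 h and 789, 517, 591, 592 and 540 later, so each later signal was lower, at 57.7% to 88.0%. TIF4632, its paralogue, had 107, 77.7, 105, 109, 125 and 112, on both sides of 0 h. TIF3, the helicase partner eIF4B, had 2423 at 0 h and 1593, 1894, 1512, 1313 and 1703 later, 54.2% to 78.2% of 0 h. CDC33, the cap-binding protein eIF4E, stayed within 82.5% to 103%, and its repressor CAF20 within 84.7% to 109%.

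DED1, an RNA helicase that opens leader sequences, had 1790 at 0 h and 1352, 519, 1245, 988 and 986 later. Its 4 h signal was 29.0% of 0 h, the lowest ratio of the 50 genes on any array, and came on the array with the low 5' actin signal. Without that array DED1 still lay at 55.1% to 75.6% of 0 h. The shared probe set of TIF1 and TIF2, for the helicase eIF4A, had 8062 at 0 h and 5722, 6884, 8553, 7582 and 7182 later. It exceeded its 0 h signal at 5 h only, and the genes cannot be separated.

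Of the remaining initiation factors, FUN12, the GTPase eIF5B that joins the subunits, stayed lower at 72.8% to 81.6% of 0 h. TIF11, the scanning factor eIF1A, stayed at 85.2% to 96.5%. SUI1, the start codon factor eIF1, hardly left its level, at 3387 at 0 h and 3159 to 3627 later. TIF5, the GTPase activator eIF5, had 737 at 0 h and 505 to 796 later.

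The 5 elongation factor genes were all below 0 h at 2 and 4 h and had medians of 91.8%, 84.4%, 108%, 82.0% and 87.8% of 0 h over the later times. YEF3, the fungal factor eEF3, had 12652 at 0 h, and 11769, 11262, 13724, 10059 and 11112 later. HYP2, for eIF5A, which helps ribosomes through stretches of proline, had 14198 at 0 h and 11636 to 15988 later. Both lay above 0 h at 5 h and below it at 2, 4 and 6 h. EFB1, the exchange factor for eEF1A, was the exception with 10316 at 0 h and 9749, 9541, 8710, 8331 and 8545 later, all lower. Its second probe set did not share this course, with 7558 at 0 h and 6525 to 9517 later.

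TEF4 and CAM1 encode alternative gamma subunits of eEF1B. TEF4 had 4196 at 0 h and 3501, 3161, 5170, 4041 and 3539 later. CAM1 had 1273, 1048, 678, 1264, 1344 and 1476. Neither kept 1 direction, and CAM1 was lowest at 4 h. The lower TEF4 probe set had 80.7 at 4 h and 2987 to 3370 at all other times, so its ratio to the higher set went from 65.2% to 86.1% elsewhere to 2.55% at 4 h. Probe sets of 1 mRNA thus disagreed on the array with the low 5' actin signal. The part of that array's 5' signal in the 4 h values of DED1 and CAM1 was not tested.

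**Figure D4:**
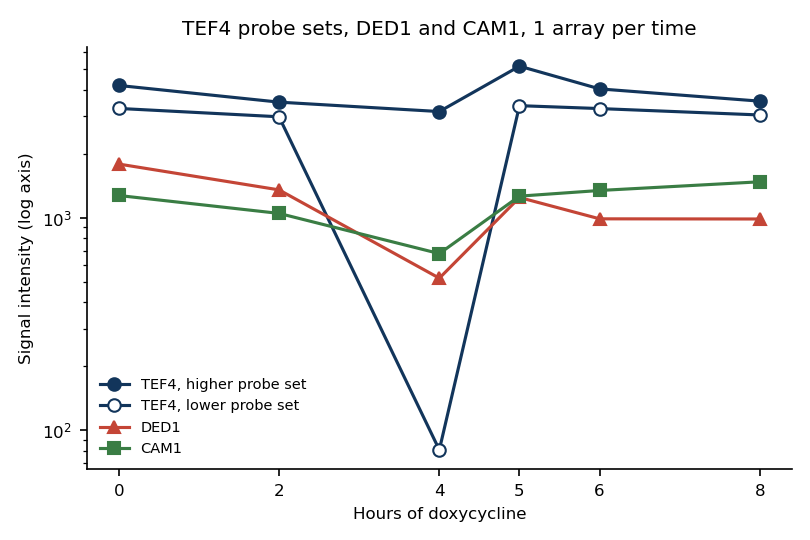
Signal intensity (vertical, log axis) against hours of doxycycline (horizontal) for the higher and lower probe sets of TEF4 and for DED1 and CAM1, 1 array per time. The lower TEF4 probe set is at 80.7 at 4 h and at 2987 or more at every other time, while the higher one is at 3161 at 4 h.

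Both release factor genes lay below 0 h throughout. SUP45, the stop codon reader eRF1, had 3161 at 0 h and 2191, 2762, 2361, 2219 and 2129 later. SUP35, the GTPase eRF3 and the prion protein of yeast, had 1143 and then 1029, 1094, 856, 928 and 814. SUP45 was already at 69.3% of 0 h at 2 h, whereas SUP35 was at 90.1% then and reached 71.2% at 8 h. Neither slope passed (limma adjusted p = 0.619 for SUP45 and 0.581 for SUP35).

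The synthetase genes were less uniform, and their members spread from well below to slightly above 0 h. WRS1, for tryptophanyl-tRNA, held the lowest ratio of the class at 6 h, with 3610 at 0 h and 2372, 2742, 2453, 2179 and 2351 later. All its later signals were at 60.4% to 76.0% of 0 h. MES1, the methionyl enzyme, had 4746 at 0 h and 3798, 3376, 4379, 2944 and 3313 later. CDC60, the leucyl enzyme, had 1028 and then 866, 735, 816, 792 and 767.

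ALA1, the alanyl enzyme of cytosol and mitochondria, went lower mainly late, with 2478, 2455, 2235, 2150, 1607 and 1738 over the 6 times. GLN4, the glutaminyl enzyme, had 658 at 0 h, 432 at 5 h and 466 to 687 at the remaining times. GRS1, KRS1 and VAS1, for glycyl-, lysyl- and valyl-tRNA, were below 0 h on every later array, at 73.3% to 90.7%, 80.0% to 99.1% and 74.7% to 98.7%. Phenylalanyl-tRNA is made by an enzyme of 2 different subunits. FRS1, the beta subunit, had 9273 at 0 h and 6632, 8582, 8639, 6929 and 6304 later, below throughout. FRS2, the alpha subunit, had 1417 and then 1105, 1597, 1237, 1268 and 1191, with 4 h above 0 h.

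THS1, the threonyl enzyme, was above 0 h on all later arrays, with 2101 at 0 h and 2281, 2317, 2690, 2426 and 2314 later. ILS1, SES1 and ARC1 each lay below 0 h on 1 later array only. They encode the isoleucyl and seryl enzymes and the cofactor that brings the methionyl and glutamyl enzymes to their tRNAs. ILS1 had 1546 at 0 h and 1484 to 1841 later, SES1 had 2622 and 2621 to 2885, and ARC1 had 2760 and 2685 to 3001. ARC1 thus did not share the course of its partner MES1, and GUS1, the glutamyl partner, stayed at 82.9% to 104.5%. The other 5, DED81, DPS1, HTS1, TYS1 and the already named GUS1, ended at 81.6% to 93.4% of 0 h at 8 h.

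Other genes of protein synthesis outside the list of 52 were looked up from a second list of 47, of which 42 had a probe set of their own and passed the filter in the time course. None passed the trend test (limma, 1 with an unadjusted p under 0.05). Of 19 other cytosolic factors and regulators 8 (42.1%) were below 0 h on all later arrays, against 18.8% of all tested probe sets. MBF1 and GCN4 were above on all, 10.5% against 25.9%. Slopes were below 0 for 13 of the 19 and above 0 for 6. All 3 remaining cytosolic synthetase genes, YDR341C, YHR020W and CRS1, were below 0 h on all later arrays. Among the lower ones, NEW1, related to eEF3, had 5442 at 0 h and 2596 to 4273 later, with a slope of -0.11 per hour (SE 0.04, limma adjusted p = 0.557). TIF6, which keeps the subunits apart, had 5898 at 0 h and 3318 to 4799 later. RLI1, which recycles ribosomes, had 3193 and 2039 to 2421 later.

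All 5 tested mitochondrial factor genes, IFM1, MEF1, MEF2, TUF1 and RRF1, lay above 0 h on every later array. In a list of 15 mostly mitochondrial synthetases 4 did, which is 26.7% and near the background of 25.9%, and none was below throughout. The median of these 15 was above 0 h at 2, 4, 6 and 8 h but at 87.5% of it at 5 h, with 10 of 15 below. MEF1, the mitochondrial elongation factor G, had 771 at 0 h and 1159, 1540, 790, 1174 and 1440 later. TUF1, the mitochondrial Tu factor, had 1295 and 1530 to 1965 later. MRF1, a listed mitochondrial release factor, was below the filter, with 35.7 at 0 h and 36, 54.6, 24.3, 28.3 and 23.6 later. The fitted slopes were positive for 5 of 5 and 9 of 15, with medians of 0.05 and 0.02 per hour. None of them passed (limma, smallest adjusted p = 0.624).

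The strain comparison asked whether cells that lack Paf1 differ in the same genes. None of the 50 passed in the paf1 deletion (limma, Benjamini-Hochberg), where 1.71% of 6493 tested probe sets did, and none had an unadjusted p under 0.05, which 963 probe sets had. The paf1 deletion mean was below the wild type mean for 38 of 50 genes and for 54.1% of tested probe sets. The median difference was -0.1975 score units against -0.06 over all. By class, the mean was lower for 19 of 24 initiation factors, 1 of 5 elongation factors, both release factors and 16 of 19 synthetase genes. It was lower for all 5 eIF2B genes (median -0.405), all 3 eIF2 genes (median -0.215) and 5 of 6 eIF3 genes (median -0.2975). Differences ran from -0.965 for GLN4 (SE 0.49, limma adjusted p = 0.405) to 0.44 for TIF4632 (SE 0.55, limma adjusted p = 0.798).

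The wild type arrays differed from each other by more than that. Wild type replicate 1 scored above replicate 2 for 46 of 50 genes and was the highest of the 5 arrays for 36. It was also the highest for 56.5% of the 2284 probe sets with a mean signal of at least 500. Their median score was 8.095 on wild type replicate 1 and 7.59 on replicate 2, so this shift was not particular to the 50 genes. Over the 50 genes the median gap between the wild type arrays was 0.615. It was 0.235 between the paf1 deletion arrays, and the difference between both groups had a median size of 0.225. In 38 of 50 genes the wild type gap exceeded the difference. Without wild type replicate 1, 17 genes instead of 38 were lower in the paf1 deletion and the median difference was 0.13, and without replicate 2 they were 45 and -0.505. All tested probe sets shifted too, with 46.0% lower and a median of 0.075 without replicate 1. Without replicate 2 these were 61.3% and -0.245. The direction of the class therefore depends on 1 wild type array. With each array centred on its median over probe sets of signal 500 or more, a setting added after the values were seen, 32 were lower, with a median of -0.1175. Of all tested probe sets 48.7% were then lower, with a median of 0.02.

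Both paf1 deletion scores lay below both wild type scores for 12 of 50 genes, against a background of 24.1%, and above them for 3, against 19.4%. The 12 were GLN4, FRS2, HTS1, ALA1, VAS1 and CDC60 of the synthetases and GCN3, RPG1, TIF11, GCD1, TIF34 and SUI3 of the initiation factors. The share below, 24%, was that of all tested probe sets. Among those with a mean signal of at least 500, 19.7% lay below and 13.6% above. By class, 31.6% of the 19 synthetase genes and 19.4% of the 31 factors lay below. The 3 genes above were CAM1, SUI1 and YEF3, all of them factors.

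GLN4 had wild type scores of 7.47 and 8.35, paf1 deletion scores of 7.37 and 6.52 and a ctr9 deletion score of 8.17. For FRS2 the wild type arrays gave 9.14 and 8.81, the paf1 deletion arrays 8.65 and 7.84 and the ctr9 deletion array 8.38, with a paf1 deletion difference of -0.73 (SE 0.35, limma adjusted p = 0.372). HTS1, the histidyl enzyme, had wild type scores of 8.70 and 9.06, paf1 deletion scores of 8.49 and 8.15 and a ctr9 deletion score of 8.46. In all 3 the groups did not overlap. The paf1 deletion replicates of GLN4 and FRS2 were 0.85 and 0.81 apart, about as far as the group means.

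GCN3 had 7.54 and 7.09 on the wild type arrays, 6.55 and 6.24 on the paf1 deletion arrays and 7.25 on the ctr9 deletion array. The paf1 deletion differed from wild type by -0.92 (SE 0.49, limma adjusted p = 0.427). RPG1, for eIF3a, had wild type scores of 7.57 and 6.62, paf1 deletion scores of 6.37 and 6.13 and a ctr9 deletion score of 6.90. Its difference of -0.845 did not pass (SE 0.53, limma adjusted p = 0.515). TIF5 overlapped between the groups, with wild type scores of 8.65 and 7.81, paf1 deletion scores of 6.70 and 7.91 and a ctr9 deletion score of 6.88. TIF34 was the other eIF3 gene without overlap, with wild type scores of 8.39 and 7.70 and paf1 deletion scores of 7.66 and 7.65.

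On the higher side, TIF4632 overlapped, with wild type scores of 5.58 and 6.07, paf1 deletion scores of 5.90 and 6.63 and a ctr9 deletion score of 5.30. YEF3 had wild type scores of 7.45 and 6.61 and a score of 7.46 on both paf1 deletion arrays, so it barely exceeded the first wild type array. SUI1 had wild type scores of 8.72 and 8.29 and paf1 deletion scores of 8.85 and 8.94, a difference of 0.39 (SE 0.29, limma adjusted p = 0.608). ARC1 and GRS1 were the synthetase list's highest, at 0.16 and 0.08.

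**Figure D5:**
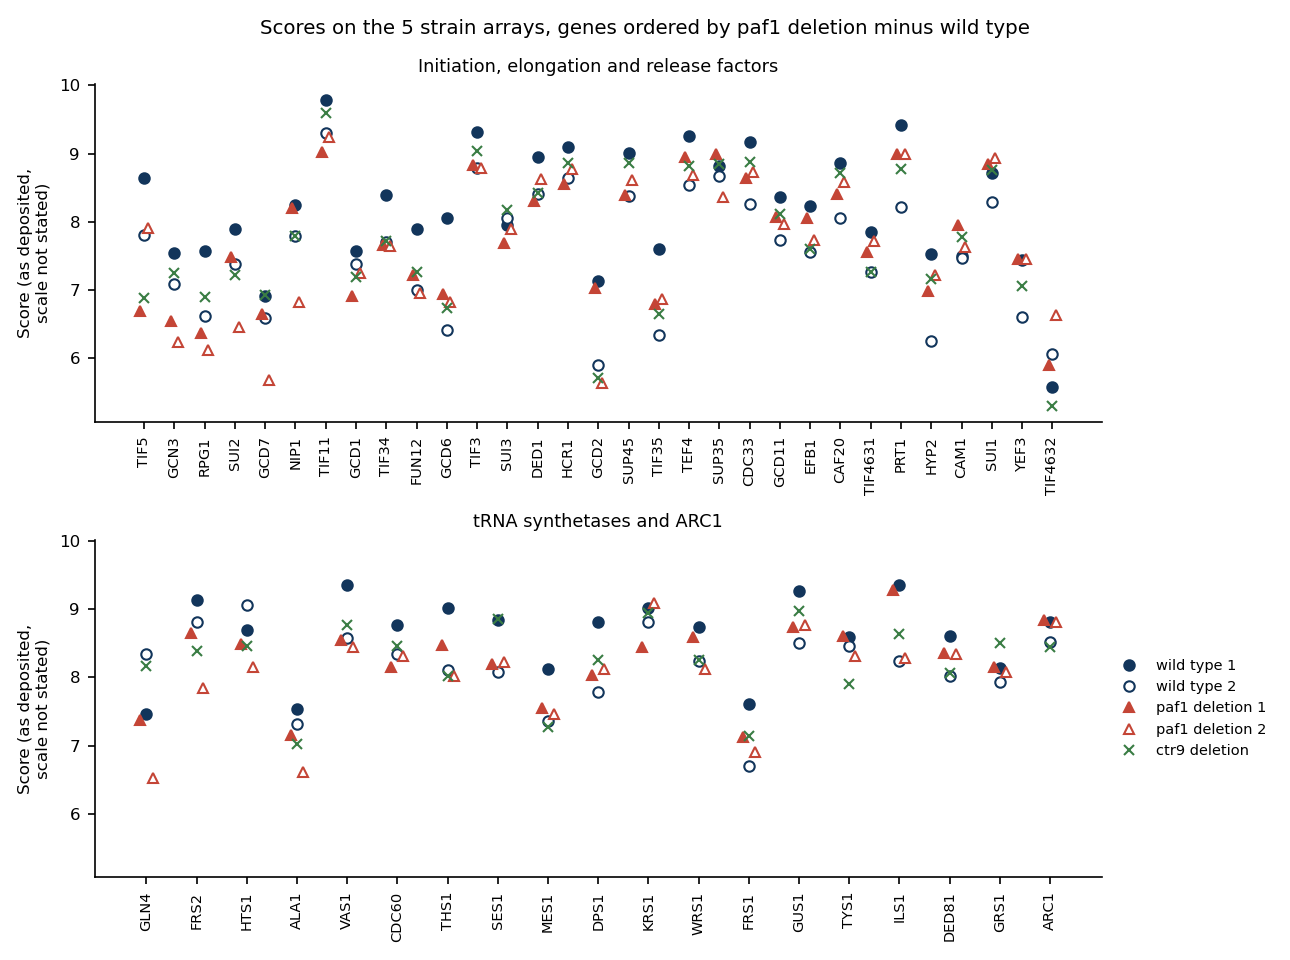
Score as deposited (vertical, scale not stated) on the 5 strain arrays for each factor gene (upper panel) and synthetase gene (lower panel), ordered by the difference of the paf1 deletion from wild type. Circles are the 2 wild type arrays, triangles the 2 paf1 deletion arrays and crosses the ctr9 deletion array. Wild type replicate 1 (filled circle) is the highest of the 5 for 36 of 50 genes, and for 56.5% of probe sets with signal 500 or more.

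In the ctr9 deletion none of the 50 passed either (limma), beside 0.0308% of tested probe sets, and none had an unadjusted p under 0.05, which 626 probe sets had. This comparison shares its wild type arrays with the one above, and for its single array the spread of the replicated groups was taken. Scores were lower than the wild type mean for 33 of 50 genes and for 46.3% of tested probe sets, with a median of -0.13 against 0.045 over all. Without wild type replicate 1 the median was 0.185 and 13 were lower, against a median of 0.2 and 39.6% lower over all tested probe sets. TIF5 had the lowest difference, -1.35 (SE 0.64, limma adjusted p = 0.536), followed by GCD2 at -0.805 and TYS1, the tyrosyl enzyme, at -0.625. GRS1 had the highest, 0.475 (SE 0.42, limma adjusted p = 0.835).

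The direct comparison of the deletions gave 0 of 50 past the threshold and 0 with an unadjusted p under 0.05 (limma), beside 0.0616% of tested probe sets past it and 190 with such a p. Differences of the paf1 from the ctr9 deletion ran from -1.225 for GLN4 (SE 0.60) to 0.965 for TIF4632 (SE 0.67). Both had limma adjusted p = 1. The median was -0.13, against -0.085 over all, and with centred arrays it was 0.01, with 23 instead of 31 genes lower. Of all tested probe sets 46.0% were lower with centred arrays, with a median of 0.0525.

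The strain set and the time course share no array. Over the 50 genes the paf1 deletion's difference from wild type and the median log2 ratio of the later times to 0 h correlated weakly (Pearson r = 0.24, across genes, which are not independent replicates). RPG1 and GCN3, with median later signals of 57.8% and 74.8% of 0 h, also had non-overlapping lower scores in the paf1 deletion, whereas TIF3 and WRS1, low in the time course, differed by -0.24 and -0.135 (SE 0.28 and 0.35) in the paf1 deletion with overlapping groups. DED1 likewise differed by -0.215 (SE 0.33).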

How the data were processed

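Per the labels, about 8 µg of total RNA per culture was made into biotinylated cRNA and hybridised. The time course values are signal intensities that the authors deposited on a common scale per array, and the strain values are scores deposited by the authors with no stated scale. The steps that made both are not given in the sources used here. Probe sets were named through the platform's annotation. Those of several genes were not used for the listed genes, but stayed in the tests and backgrounds over all probe sets. Signals were floored at their 10th percentile and taken to log2. Limma 3.58.1 (R 4.3.3) fitted 3 strain means to the 5 score arrays and a slope per hour to the 6 signal arrays, with eBayes trend. Probe sets with a mean below the 30th percentile were left out, leaving 6493 and 6492, and p-values were adjusted over all of these (Benjamini-Hochberg, threshold 0.05). Single times have 1 array and no test, and a 1.5-fold ratio to 0 h was counted. The fits were tested on simulated data with planted differences and slopes larger than those of the genes here. That test does not show whether differences of the size seen here could be found. Members and lists were chosen with earlier results of these data known. The background of signal 500 or more, centring, the 2 h reference, the count over all later arrays and the setting without 4 h and 6 h were chosen after seeing the data. All genes in the list may be named. Values in every array are given for the highest and lowest genes, paralogues and complexes, and the others by ranges. No sequences are shown, and a planned promoter search was not run. The number of arrays limits the precision.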

Additional observations from a re-analysis of the deposited data

Results flagged for a closer look

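The values below come from probe sets that the comparisons did not use, and each stands above the highest signal of the 9 antisense control probe sets, 40.9. The lowest time course signal of the probe set shared by TIF1 and TIF2 was 5722. For the probe set shared by TEF1 and TEF2, which encode eEF1A, it was 8227.1, and for that shared by EFT1 and EFT2, which encode eEF2, it was 4585.4. The second probe set of TEF4 had its lowest signal, 80.7, at 4 h, and the second probe set of EFB1 had 6525, also at 4 h.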

How the results depend on the processing

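None of the 50 genes passed the test in any of the 4 comparisons under any alternative that was run. Over all probe sets, the count called in the paf1 deletion, 111, was 32 with centring, 56 with the filter at the 50th percentile, 41 with no filter, 39 with no variance trend, 42 with quantile normalization, and 0 to 190 leaving out 1 replicate. Whether replicate numbers pair the arrays was not stated. The deviations of both groups' replicates correlated at 0.008 over 6493 probe sets, which cannot decide it with 2 arrays per group. With the replicate block 198 were called, against 89 on the same 4 arrays without it. The ctr9 count, 2, was 0 with centring, the 50th percentile, no filter, no variance trend and quantile normalization, and 0 to 108 leaving out 1 replicate. The count between deletions, 4, was 2 with centring, the 50th percentile, no variance trend and quantile normalization, and 0 to 11 leaving out 1 replicate. Members lower in the paf1 deletion ranged from 17 to 45 and in the ctr9 deletion from 13 to 42 leaving out 1 replicate. Those above wild type without overlap, 3, were 6 with quantile normalization and 5 with centring. These are 12% and 10% of the 50, against 23.3% and 22.6% of tested probe sets in the same settings. Requiring 2-fold, 0, 1, 0, 1 and 0 members were lower at 2, 4, 5, 6 and 8 h. At 5 h, 3 were lower by 1.5-fold with quantile normalization and 5 with a pseudocount of 50. Against 2 h instead of 0 h, 3, 0, 1 and 0 were lower and 1, 1, 2 and 1 higher at 4, 5, 6 and 8 h. The median log2 ratio at those 4 times was 0.148, 0.0902, -0.0171 and -0.0423. Over all tested probe sets it was 0.0638, -0.0544, 0.0539 and 0.0574. For the 2-fold counts, the 2 alternative counts at 5 h and the counts against 2 h no background is given here. Those counts therefore cannot be set against all tested probe sets. The members below 0 h on all later arrays, 26, were 26 with quantile normalization, against 21.4% of tested probe sets. They were 25 with second probe sets and 36 without 4 h and 6 h, against 26.3% of tested probe sets in the last. The cause of these changes was not tested. One array per time, 2 residual degrees of freedom in the strains and a possible compression of high scores limit what could be detected.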

Other observations

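Among genes of mitochondrial protein synthesis, SLM5, the mitochondrial asparaginyl-tRNA synthetase, had wild type scores of 5.97 and 5.89, paf1 deletion scores of 3.22 and 3.93 and a ctr9 deletion score of 6.05. The paf1 deletion differed from wild type by -2.355 and just missed the threshold (limma adjusted p = 0.0717). MRF1, the mitochondrial release factor, had wild type scores of 4.06 and 4.14, paf1 deletion scores of 0.24 and 1.83 and a ctr9 deletion score of 0.35. It was below the filter on low values and was not tested. IFM1, the mitochondrial initiation factor, had wild type scores of 4.61 and 4.20, paf1 deletion scores of 6.00 and 5.80 and a ctr9 deletion score of 6.26, with differences of 1.495 and 1.855 (limma adjusted p = 0.222 and 0.389). These genes were singled out after their values were seen, and the comparisons share the wild type arrays. MBF1, a coactivator of Gcn4, had a signal of 667 at 0 h and 1809, 986, 1475, 1712 and 1114 later, above 0 h throughout, while GCN4 itself had 5538 at 0 h and 5732 to 7151 later.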
